A study of Manis javanica with 3 samples.

Results

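The SLC25 genes encode the mitochondrial carriers, proteins of the inner mitochondrial membrane that exchange nucleotides, phosphate, keto acids, amino acids, cofactors and metal ions between the matrix and the cytosol. The uncoupling proteins belong to the same family, and UCP1 is known for heat production in brown fat. Liver, which makes urea, glucose and lipids across the mitochondrial membrane, is known for its use of the ornithine, citrate and aspartate/glutamate carriers. Members were taken as the genes whose Swiss-Prot symbol begins with SLC25A or is UCP1, UCP2 or UCP3. The deposited annotation of 22538 genes held 55 of them, and 53 were among the 24220 genes of the expression tables. SLC25A42 (gene22610) and a copy of SLC25A34 (gene11447) were not in these tables and are named only.

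The Swiss-Prot symbol often stood for a paralog. The 55 members carried 31 distinct symbols, while their products in NR, a protein sequence database, named 47 distinct carriers, and for 16 members the carrier named by NR was not the one of the symbol. Ornithine transporter SLC25A15 (gene20181), for example, was listed under the symbol SLC25A20, and the NAD carrier SLC25A51 (gene16655) under SLC25A21. Members are therefore called here by their NR product, with the gene identifier of the files where it matters. Of the members, 5 were new genes, joined by the authors from reads outside the annotated genes.

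The samples came from a single adult female of the Malayan pangolin, *Manis javanica*, a wild animal that died while being rescued, with 1 RNA library each for its small intestine, its salivary glands and its liver. The comparisons therefore ask in which of these organs each carrier was most abundant, and no value has a replicate check. Levels between genes are given as FPKM, fragments scaled to transcript length and library size. The deposited FPKM was not the count per length times 1 factor per library. In small intestine its ratio to the count per kilobase and per 1e6 fragments was 1.13 for SLC25A6 but 2.69 for SLC25A4 and 4.39 for the shortest SLC25A24 gene, so that levels between genes are less certain than differences of a gene between libraries. Differences between libraries are given as log2 differences of fragment counts scaled by TMM, a scaling to the bulk of genes. Each is followed where needed by its 95% exact counting interval, which covers counting error only and says nothing of the spread between animals.

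The counts summed to between 8318686 and 14568778 per library, and a count of 0 allows up to 3 fragments, which is between 0.205 and 0.347 CPM after TMM scaling. The library labelled small intestine did not carry the markers of its label. In it, 13 of 15 gastric genes had an FPKM above 1, with a median of 652, while 2 of 10 enterocyte genes did, with a median of 0.299 and with FABP2 and LCT at 0. Its 5 smooth muscle genes summed to an FPKM of 3169, against 349 for salivary glands and 30.2 for liver. All 10 hepatocyte genes were above 1 in liver. The 9 salivary gland genes summed to 134 in the organ of their name, against 5.49 in small intestine and 28.2 in liver, but 3, 3 and 2 of 9 were above 1 in small intestine, salivary glands and liver, and AQP5 alone gave 94.3 of the 134. In RNA from whole organs, fewer cells of a type and less RNA per cell cannot be told apart.

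Most carriers were detected in every organ. An FPKM above 1 was found for 44 of the 53 members in small intestine, for 42 in salivary glands and for 43 in liver. Of all 24220 genes, 14392, 13631 and 13810 passed it in the same order. In all 3 libraries 38 members passed it. This count was not made here over all genes, although the paper gives one for its transcripts at the same threshold. UCP1 (gene18093) and SLC25A53 (gene15391) had no fragment in any library. The median FPKM over members was 7.07 in small intestine, 6.26 in salivary glands and 7.69 in liver, beside medians of 2.16, 1.76 and 1.89 over all genes.

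A few genes carried most of the family's signal. The summed FPKM of members was 2442 in small intestine, 3015 in salivary glands and 2207 in liver, which was 0.341%, 0.505% and 0.354% of all FPKM. By fragment counts members took 0.322%, 0.595% and 0.440%. The ADP/ATP carriers alone made up 66.4%, 56.6% and 51.1% of the summed FPKM, in the same order. Without SLC25A6, SLC25A3 and UCP2 the sums were 729, 665 and 854. The share of counts also moves with the few genes that dominate a library, since the 10 most abundant genes took 47.4%, 39.8% and 29.0% of the FPKM. With those genes left out of the total, members held 0.569%, 0.773% and 0.524% of the counts.

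**Figure D1:**
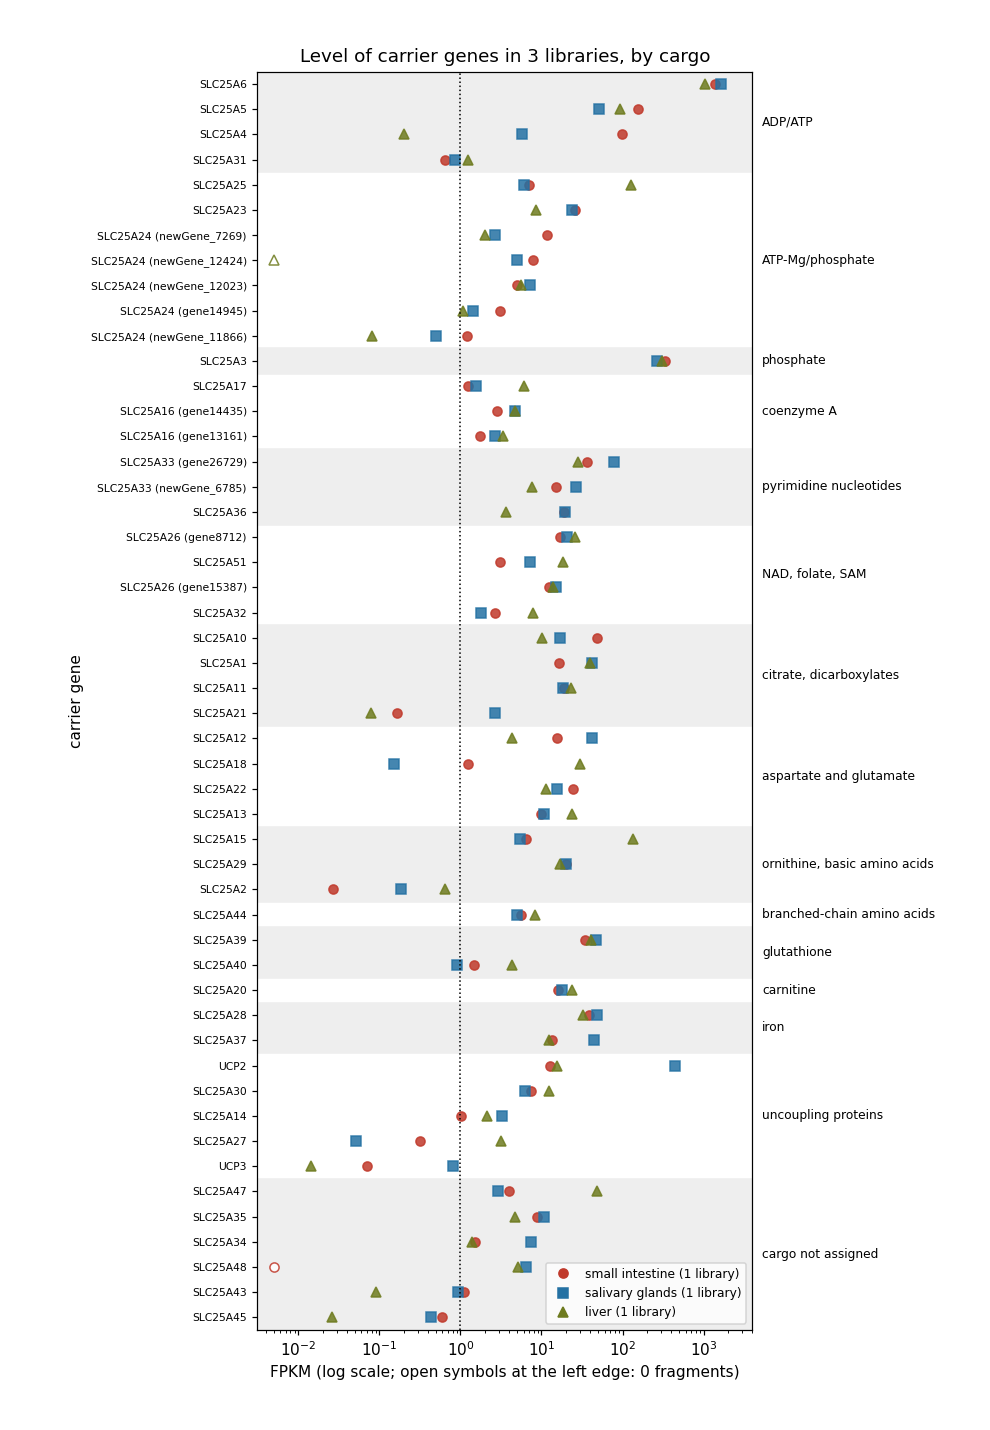
FPKM on a log scale of the reported members with at least 1 fragment, grouped by cargo, with 1 symbol for each of the 3 libraries and open symbols at the left edge for 0 fragments. SLC25A6 lies between 1034 and 1648 in all 3 libraries, whereas UCP2 stands at 438 in salivary glands and under 20 elsewhere.

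A member was counted as higher or lower when its TMM-scaled counts differed by at least 2-fold and at least 10 fragments were counted in 1 of the 2 libraries. Liver against small intestine, 13 of 47 members tested were higher (27.7%), beside 24.1% of all 17399 genes tested, and 9 were lower (19.1%), also beside 24.1%. Liver against salivary glands, 10 of 48 were higher (20.8%), beside 24.9% of all 17162 genes, and 13 were lower (27.1%), beside 22.7%. Salivary glands against small intestine, 10 of 47 were higher (21.3%), beside 16.7% of all 16519 genes, and 6 were lower (12.8%), beside 20.5%. With library size alone as the scaling, this last split was 15 higher and 3 lower. All genes moved as well, with their median log2 difference going from 0.02 to 0.47. Their shares past 2-fold were not computed with that scaling.

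These shares lay on both sides of those of all genes, and nothing about the family is read from them. The median log2 difference over members was 0.39 for liver minus small intestine, beside 0.08 over all genes tested. It was -0.06 beside 0.07 for liver minus salivary glands, and 0.21 beside 0.02 for salivary glands minus small intestine. The 3 comparisons share libraries, so their counts are not independent. At least 1 comparison passed 2-fold in 31 of 49 members tested in any of them (63.3%), beside 64.7% of all genes. Of 44 members tested in all 3 comparisons, 18 were within 2-fold throughout (40.9%), beside 41.9% of all genes.

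**Figure D2:**
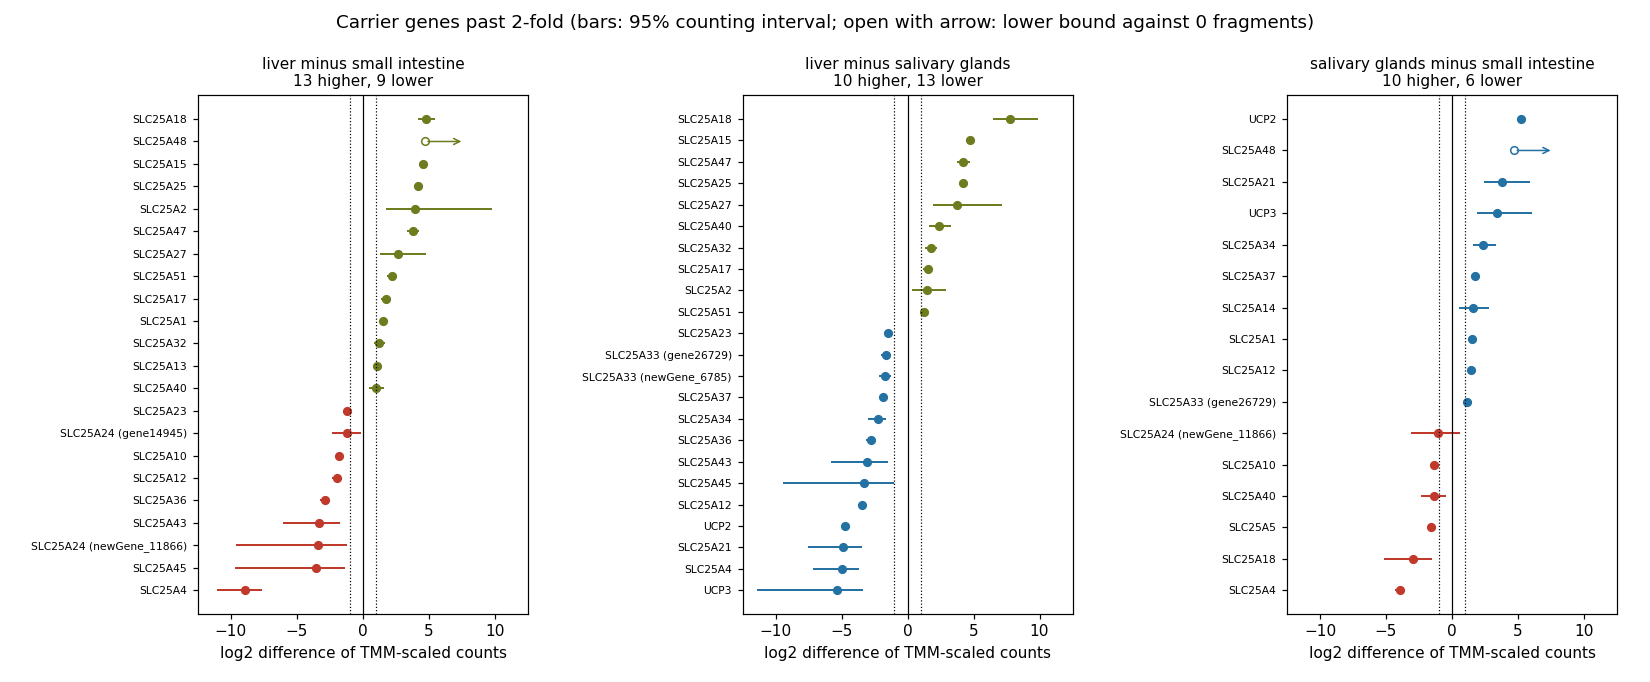
Log2 difference of TMM-scaled counts for the members past 2-fold in each of the 3 comparisons, with bars for the 95% counting interval and dotted lines at 2-fold. Open symbols with an arrow mark SLC25A48, which had no fragment in small intestine, at the lower bound that 3 fragments allow. SLC25A18 stands highest for liver minus salivary glands, at 7.78, and UCP2 stands at 5.21 for salivary glands minus small intestine.

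The ADP/ATP carriers export ATP from the matrix in exchange for ADP. SLC25A6 was the most abundant member in all 3 libraries, with an FPKM of 1366 in small intestine, 1648 in salivary glands and 1034 in liver. It ranked 33, 27 and 56 among all genes of these libraries and was within 2-fold in every comparison. SLC25A5 (gene24263), a second widely expressed isoform, had an FPKM of 156, 50.7 and 92.0, in the same order. Its salivary gland level was the lowest, with a log2 difference of -1.60 to small intestine (-1.75 to -1.46). SLC25A31, an isoform known from germ cells, stayed between 0.648 and 1.23.

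SLC25A4 (gene20812), the isoform known for heart and skeletal muscle, differed most between organs. Its FPKM was 99.0 in small intestine, 5.73 in salivary glands and 0.203 in liver, from 1314, 95 and 4 fragments. The log2 difference of liver to small intestine was -8.91 (-10.997 to -7.76), and that of salivary glands to small intestine -3.95 (-4.27 to -3.66). The 5 smooth muscle genes had the same order of libraries, all 5 above an FPKM of 1 in small intestine and in salivary glands and 2 of 5 in liver. MYH11, the myosin heavy chain of smooth muscle, had an FPKM of 638, 41.1 and 0.299, and the intermediate filament gene DES had 754, 9.86 and 0.205. Of 8 skeletal muscle genes, 1, 3 and 1 were above 1, with sums of 26.5, 31.6 and 2.79. The gastric list also followed the order of SLC25A4, with a median FPKM over its 15 genes of 652, 0.608 and 0. The part of muscle or gastric RNA in the SLC25A4 difference was not tested.

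SLC25A3 (gene17724), which brings phosphate into the matrix for ATP synthesis, came next to SLC25A6 in small intestine and in liver. Its FPKM was 334 in small intestine, 263 in salivary glands and 304 in liver. The largest of its 3 log2 differences was -0.29, for salivary glands minus small intestine, so that this carrier was even across the organs. With library size alone as the scaling, that difference was 0.17.

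ATP-Mg/phosphate carriers, which are opened by calcium and set the adenine nucleotide content of the matrix, divided by organ. SLC25A25 (gene9751) had an FPKM of 7.07 in small intestine, 6.07 in salivary glands and 126 in liver. It was 17.5-fold and 18.4-fold higher in liver than in small intestine and salivary glands, with log2 differences of 4.13 (3.96 to 4.31) and 4.201 (4.04 to 4.37). SLC25A23 (gene17212) showed the opposite order, at 25.6, 23.6 and 8.61, with log2 differences of liver of -1.19 to small intestine and -1.47 to salivary glands. The former was -0.95 with library size alone. SLC25A25 thus took 93.6% of the summed FPKM of both genes in liver, against 21.7% in small intestine and 20.5% in salivary glands.

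Such a shift between paralogs does not depend on how libraries are scaled. The log2 ratio of SLC25A25 to SLC25A23 fragments was 5.32 higher in liver than in small intestine (5.09 to 5.55) and 5.68 higher than in salivary glands (5.46 to 5.90). Between salivary glands and small intestine it differed by -0.36 (-0.63 to -0.09).

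A further isoform of this group, SLC25A24, was split over 5 genes with lengths of 259 to 1864 bases, each on a scaffold of its own. Reads could be divided among such copies, so their single values are uncertain. Only 1 of them, Manis_javanica_newGene_12023, for which NR named no carrier, had more than 50 fragments in a library, with an FPKM of 4.98, 7.18 and 5.57 in small intestine, salivary glands and liver. The other 4 had between 0 and 21 fragments in each library and their counts were highest in small intestine. Of these, gene14945 had 21, 12 and 15 fragments, and Manis_javanica_newGene_11866 had 10, 5 and 1. Summed over the 5 genes, 101, 109 and 91 fragments gave log2 differences of -0.91 for liver minus small intestine and -0.85 for liver minus salivary glands, both within 2-fold.

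Coenzyme A carriers were low. SLC25A17 (gene12360), the carrier of peroxisomes for coenzyme A and related cofactors, had an FPKM of 1.25 in small intestine, 1.55 in salivary glands and 6.06 in liver. It was 3.31-fold and 2.88-fold higher in liver, respectively. SLC25A16, a carrier linked to coenzyme A in the matrix, was found as 2 genes, gene13161 at an FPKM of 1.74, 2.64 and 3.33 and gene14435 at 2.83, 4.67 and 4.70. Neither passed 2-fold, and each had at most 38 fragments in a library.

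The pyrimidine nucleotide carriers, which supply mitochondrial DNA and RNA synthesis, were lowest in liver. SLC25A36 (gene15102) had an FPKM of 18.8 in small intestine, 19.4 in salivary glands and 3.68 in liver, with log2 differences of liver of -2.88 (-3.15 to -2.62) and -2.76 (-3.03 to -2.51). SLC25A33 was annotated as 2 genes, whose reads may have been divided. Its gene26729 had an FPKM of 36.9, 78.0 and 28.1, and Manis_javanica_newGene_6785 had 14.995, 27.0 and 7.69. Both copies were highest in salivary glands, with log2 differences of liver of -1.65 and -1.67, and to small intestine gene26729 passed 2-fold at 1.15 and the new gene did not at 0.93. The share of the new gene in their summed fragments was 33.6%, 30.3% and 29.9% in the 3 libraries, with overlapping 95% Wilson intervals of 28.3 to 39.3%, 26.9 to 33.9% and 25.1 to 35.2%.

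Among the cofactor carriers, those of NAD and folate were higher in liver. SLC25A51, which carries NAD into mitochondria, had an FPKM of 3.11 in small intestine, 7.27 in salivary glands and 18.2 in liver. It was 4.58-fold and 2.38-fold higher in liver, respectively. The folate carrier SLC25A32 (gene24087) had 2.63, 1.82 and 7.84, and was 2.34-fold and 3.43-fold higher in liver. Of 5 genes of mitochondrial one-carbon metabolism, in which this folate is used, 2 were higher in liver than in small intestine and 3 higher than in salivary glands, with none lower. SHMT2, which moves a one-carbon unit from serine to folate, had an FPKM of 16.1, 14.5 and 65.9.

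S-adenosylmethionine carrier SLC25A26, which supplies the methyl donor of the matrix, was present as gene8712, at an FPKM of 16.8, 20.8 and 25.8, and gene15387, at 12.51, 15.1 and 13.9. Neither gene passed 2-fold in any comparison.

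Carriers of citrate and dicarboxylates link the citric acid cycle with cytosolic lipid and glucose synthesis, and each had its own order of organs. SLC25A1 (gene17819), which exports citrate, had an FPKM of 16.3 in small intestine, 41.5 in salivary glands and 40.1 in liver. Salivary glands and liver differed in it by a log2 of only 0.06, and both were above small intestine, by 1.48 and 1.54. Enzymes of citrate use did not share this order. ACLY, which cleaves exported citrate to acetyl-CoA, had an FPKM of 13.4, 174 and 7.72, and the citrate synthase gene CS had 101, 99.0 and 28.1. Of the 4 genes of this list, 1 was higher and none lower in salivary glands than in small intestine, and none was higher and 1 lower in liver than in small intestine.

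SLC25A10 (gene20541), the dicarboxylate carrier, was highest in small intestine, with an FPKM of 47.9 against 17.0 in salivary glands and 10.04 in liver. Its log2 difference to small intestine was -1.35 (-1.55 to -1.16) in salivary glands, or -0.90 with library size alone, and -1.79 (-1.98 to -1.61) in liver. The oxoglutarate carrier SLC25A11 (gene7346), which takes part in the malate-aspartate shuttle, was even at 18.9, 18.6 and 22.9. SLC25A10 therefore took 71.7% of the summed FPKM of both in small intestine, 47.7% in salivary glands and 30.5% in liver. From counts per length these shares were 59.4%, 34.7% and 22.9%. SLC25A21, which carries oxoadipate in lysine breakdown, was near 0 in small intestine and liver, with 4 and 3 fragments, and had 69 in salivary glands at an FPKM of 2.70.

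Aspartate/glutamate carriers move aspartate out of the matrix, and the balance of their 2 isoforms differed between organs. SLC25A12 (gene6493), known for muscle and brain, had an FPKM of 15.7 in small intestine, 42.1 in salivary glands and 4.29 in liver. SLC25A13 (gene18286), known for liver as citrin, had 9.91, 10.9 and 23.98. SLC25A13 took 84.8% of their summed FPKM in liver but 38.7% in small intestine and 20.5% in salivary glands. From counts per length the shares were 90.9%, 54.5% and 31.9%, so which isoform was more abundant in small intestine depends on the measure. The log2 ratio of their fragments, SLC25A13 to SLC25A12, was 3.05 higher in liver than in small intestine (2.70 to 3.40) and 4.40 higher than in salivary glands (4.09 to 4.72). It was 1.35 lower in salivary glands than in small intestine, that is -1.35 (-1.65 to -1.06).

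By single genes, the shift came more from SLC25A12 than from SLC25A13. SLC25A12 was 10.8-fold lower in liver than in salivary glands and 3.89-fold lower than in small intestine, and it was 2.78-fold higher in salivary glands than in small intestine. SLC25A13 was 2.12-fold higher in liver than in small intestine and 1.95-fold higher than in salivary glands, the latter within 2-fold. Of the 4 enzymes of the malate-aspartate shuttle, 3 were within 2-fold in both liver comparisons, and GOT1, the cytosolic aspartate aminotransferase, was higher in liver in both. GOT1 had an FPKM of 28.9, 15.01 and 111.

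Of the glutamate carriers, 1 was within 2-fold by TMM-scaled counts in all comparisons and 1 was high in liver. The former, SLC25A22 (gene19438), had an FPKM of 24.2, 15.7 and 11.5 in small intestine, salivary glands and liver. Its log2 difference of liver to small intestine was -0.56, although its FPKM differed by more than 2-fold between these libraries. SLC25A18 (gene11808), its paralog, had 1.24, 0.150 and 29.4, from 31, 4 and 1451 fragments. It was 27.3-fold higher in liver than in small intestine and 219-fold higher than in salivary glands, with log2 differences of 4.77 (4.28 to 5.35) and 7.78 (6.55 to 9.79). SLC25A18 took 72.0% of the summed FPKM of both genes in liver, 4.89% in small intestine and 0.945% in salivary glands. From counts per length these shares were 81.1%, 9.52% and 1.62%, in the same order of libraries.

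**Figure D3:**
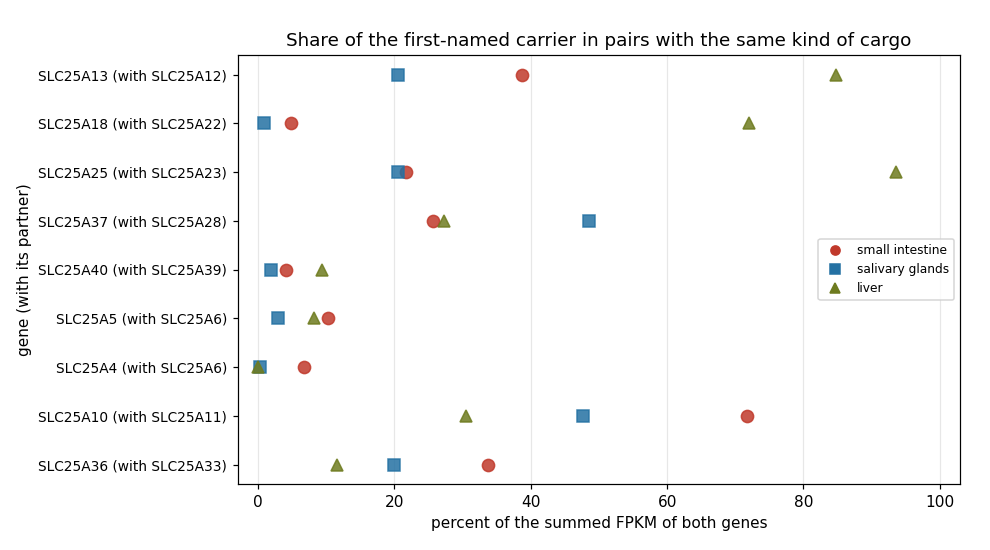
Percent of the summed FPKM of 2 carriers with the same kind of cargo that the first-named gene took, with 1 symbol for each library. SLC25A13, SLC25A18 and SLC25A25 take 84.8%, 72.0% and 93.6% in liver and under 40% in the other libraries, while SLC25A10 takes its highest share, 71.7%, in small intestine.

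Ornithine carriers feed the urea cycle, which begins in the matrix and is known as a liver pathway. SLC25A15 had an FPKM of 6.52 in small intestine, 5.44 in salivary glands and 135 in liver, from 167, 169 and 6751 fragments. It was 23.8-fold and 26.5-fold higher in liver, with log2 differences of 4.57 (4.36 to 4.81) and 4.73 (4.51 to 4.96), while small intestine and salivary glands were within 2-fold of each other. The low paralog SLC25A2 (gene7104) was also highest in liver, with 1, 8 and 35 fragments and an FPKM of 0.653 in liver. For SLC25A2 the ratio of liver to small intestine was 15.3-fold with a log2 interval of 1.80 to 9.71.

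Of the 7 genes found for the 6 urea cycle enzymes, 6 were higher in liver than in either other library and ASL was within 2-fold. CPS1, which makes carbamoyl phosphate in the matrix, had an FPKM of 311 in liver, no fragment in small intestine and 4 fragments in salivary glands. ARG1, which releases the ornithine that SLC25A15 carries, had 1.40, 0 and 372. OTC, the matrix enzyme that uses this ornithine, was much lower, with no fragment in small intestine and salivary glands and 16 in liver, an FPKM of 0.322. SLC25A15 in liver therefore stood above OTC and below CPS1 and ARG1 in FPKM. The hepatocyte list stood beside all liver-high members, with 6, 4 and 10 of 10 genes above 1 and sums of 178, 131 and 47557 in small intestine, salivary glands and liver, and its part in them was not tested.

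**Figure D4:**
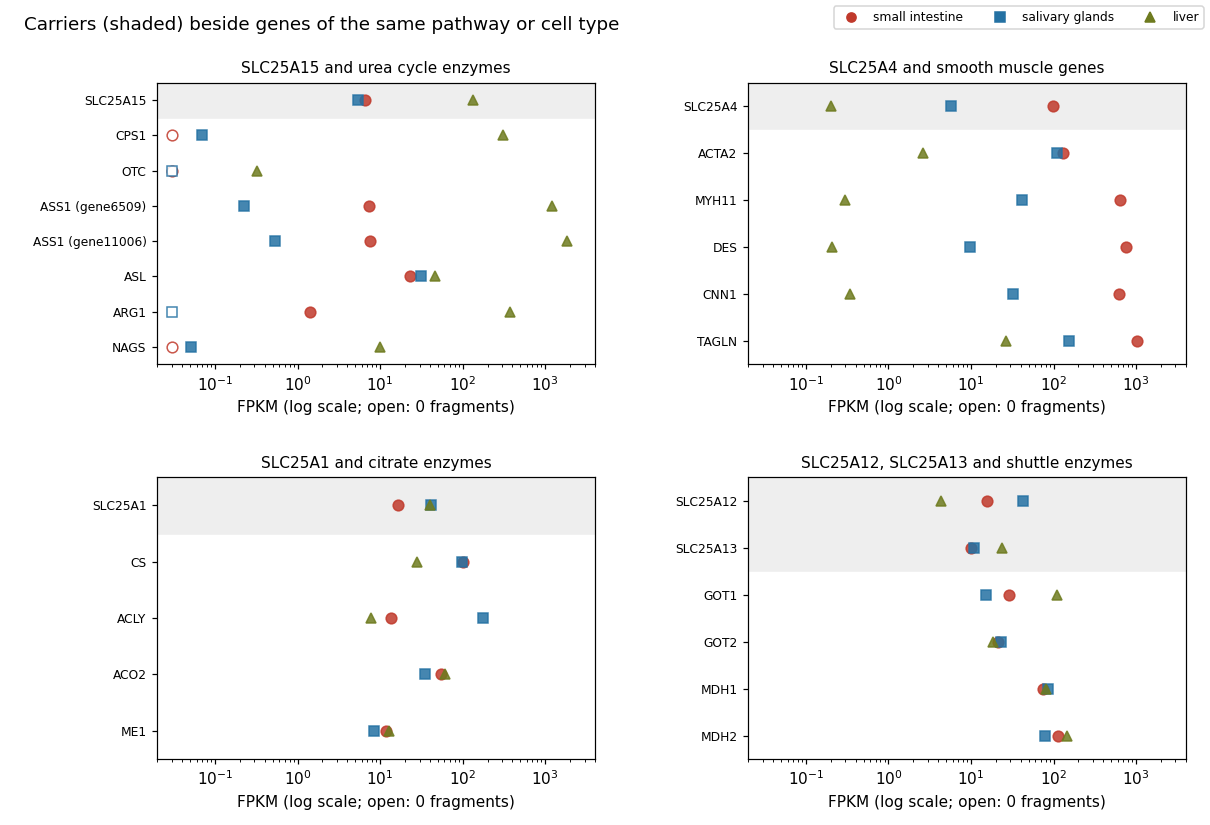
FPKM on a log scale of 5 carriers (shaded) beside urea cycle enzymes, smooth muscle genes, citrate enzymes and malate-aspartate shuttle enzymes, with 1 symbol for each library and open symbols for 0 fragments. SLC25A15 at 135 and CPS1 at 311 are both highest in liver, and SLC25A4 and the smooth muscle genes are all highest in small intestine.

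SLC25A29 (gene21855), the basic amino acid carrier, was even, with an FPKM of 19.9 in small intestine, 20.2 in salivary glands and 17.1 in liver. It lay on the minus strand of scaffold NW_016551295.1 at 43854 to 55521, in the coordinates of the files, whose genome build is not named. Next to it, 1752 bases away on the plus strand, lay SLC25A47 (gene21856, 57274 to 71448), a carrier known from liver. SLC25A47 had an FPKM of 4.03, 2.90 and 48.3, and was 13.6-fold higher in liver than in small intestine and 18.9-fold higher than in salivary glands. The 2 neighbours thus differed in pattern, and the log2 ratio of SLC25A47 to SLC25A29 fragments was 3.62 (3.22 to 4.06) and 4.30 (3.87 to 4.78) higher in liver.

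The branched-chain amino acid carrier SLC25A44 (gene21110) was within 2-fold in all comparisons, with an FPKM of 5.61, 4.97 and 8.43 in small intestine, salivary glands and liver. Carnitine-acylcarnitine carrier SLC25A20 (gene19992), through which long-chain fatty acids enter the matrix, was also even, at 16.2, 18.0 and 23.5. The enzymes on either side of it were less even. CPT1A, which makes the acylcarnitine outside, had an FPKM of 75.9, 67.2 and 10.3, with log2 differences of liver of -2.94 and -2.79. CPT2, which takes it apart inside, had 9.03, 13.3 and 21.1. Over the 5 genes of the carnitine shuttle, 1 was higher and 1 lower in liver than in small intestine.

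Glutathione carriers protect the matrix from oxidants and iron overload. SLC25A39 (gene20687) was even, with an FPKM of 34.4 in small intestine, 46.5 in salivary glands and 41.3 in liver. Its paralog SLC25A40 (gene13011) was low, at 1.49, 0.896 and 4.30 from 42, 18 and 144 fragments. SLC25A40 was 5.22-fold higher in liver than in salivary glands and 2.02-fold higher than in small intestine, just past the limit, with a log2 difference of 1.01 (0.51 to 1.55) that became 0.97 with upper quartile scaling. Its salivary gland level was below that of small intestine by a log2 difference of -1.37, which was -0.92 with library size alone and -0.73 in FPKM.

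Iron enters mitochondria through the mitoferrins SLC25A28 and SLC25A37. SLC25A28 (gene20925), the widely expressed one, had an FPKM of 38.5 in small intestine, 47.8 in salivary glands and 32.6 in liver and was within 2-fold throughout. SLC25A37 (gene5391), known for red cell precursors, had 13.3, 45.04 and 12.2. It was 3.38-fold higher in salivary glands than in small intestine and 3.67-fold higher than in liver. It took 48.5% of their summed FPKM in salivary glands against 25.7% and 27.3% in small intestine and liver. From counts per length these shares were 54.3%, 31.7% and 34.2%, so which mitoferrin was more abundant in salivary glands depends on the measure. Of 6 erythroid genes 1 was above an FPKM of 1 in each library, the list summed to 4.67, 2.33 and 2.41 in small intestine, salivary glands and liver, and SLC4A1 was at 0 in all 3. The list lay near the floor, with HBB (gene18135) at 3.82, 0 and 0.512 and AHSP at 0, 1.33 and 0.787, and the part of red cell precursors in SLC25A37 was not tested. Of the 10 genes of haem and iron-sulfur cluster synthesis, 2 were higher and 1 lower in salivary glands than in small intestine.

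UCP2 (gene5016), an uncoupling protein relative that exports four-carbon metabolites from the matrix, stood far above its level elsewhere in salivary glands. Its FPKM was 438 there, against 12.9 in small intestine and 15.3 in liver, from 8090, 194 and 448 fragments. It was 37.0-fold higher than in small intestine and 27.2-fold higher than in liver, with log2 differences of 5.21 (5.01 to 5.43) and, for liver minus salivary glands, -4.76 (-4.91 to -4.63). UCP2 ranked 119 among all genes of the salivary gland library by FPKM, and its group made up 14.9% of the summed FPKM of members there, against 0.890% and 1.49% in small intestine and liver. UCP2 is known to be expressed by macrophages, and of 5 macrophage genes 2, 2 and 5 were above 1, with sums of 10.9, 9.92 and 108, and their part in UCP2 was not tested.

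UCP3 (gene5014), known for skeletal muscle, lay 3993 bases upstream of UCP2 on the same strand of scaffold NW_016530114.1, at 146861 to 166564 against 170558 to 177882. It was low but also highest in salivary glands, with 3, 42 and 1 fragments in small intestine, salivary glands and liver. Its FPKM in salivary glands was 0.807. Its log2 difference of salivary glands to small intestine was 3.45 (1.99 to 5.97). The log2 ratio of UCP2 to UCP3 fragments differed by 1.78 for salivary glands minus small intestine (-0.77 to 3.24). For liver minus salivary glands it differed by 0.65 (-1.35 to 6.56), so a difference in pattern between these neighbours was not resolved. The 8 skeletal muscle genes had no common order. ACTA1 had an FPKM of 0.870, 26.8 and 0 in small intestine, salivary glands and liver, while CKM had 24.8, 2.42 and 0.0329 and CKMT2 had 0, 1.80 and 2.75. MYH2, with 10 fragments, and MYH1, with 5 and 3 in its copies, had fragments in salivary glands only. TNNT3 and MYH7, with 8 and 2, had them in small intestine only. Of 4 genes tested, 3 were higher and 1 lower in salivary glands than in small intestine. Against liver, 3 of 4 were higher in salivary glands and 1 was within 2-fold. Whether muscle RNA in the salivary gland library had a part in UCP3 was not tested. Of 7 genes of fat, 2, 2 and 1 were above 1, with sums of 6.58, 23.4 and 4.97, beside UCP1 at 0 throughout.

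The other relatives of the uncoupling proteins were low or even. SLC25A30 (gene7285) had an FPKM of 7.42, 6.26 and 12.3, within 2-fold. SLC25A14 (gene11388) had 11, 38 and 30 fragments and was 2.99-fold higher in salivary glands than in small intestine. SLC25A27 (gene22502) had 4, 2 and 47 fragments and reached an FPKM of 3.14 in liver. It was 6.44-fold higher there than in small intestine and 13.2-fold higher than in salivary glands, with log2 intervals of 1.34 to 4.73 and 2.03 to 7.05.

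Of the remaining members, whose cargo is not assigned here, SLC25A48 (gene3610) had no fragment in small intestine, 88 in salivary glands and 131 in liver. It was at least 26.1-fold higher in salivary glands and at least 25.8-fold higher in liver than the 3 fragments that 0 allows. SLC25A34 (gene21331) had an FPKM of 1.53, 7.34 and 1.39 and was 5.22-fold higher in salivary glands than in small intestine and 4.73-fold higher than in liver. SLC25A35 was within 2-fold by TMM-scaled counts in all comparisons, with a log2 difference of -0.51 for liver minus salivary glands. Its FPKM of 8.76, 10.7 and 4.70 was less even, differing by more than 2-fold between salivary glands and liver.

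SLC25A43 (gene24265) and SLC25A45 (gene13989) were near the limit of detection, with 21, 20 and 3 fragments and 11, 10 and 1 fragments in small intestine, salivary glands and liver. Both passed 2-fold as lower in liver, with log2 differences to small intestine of -3.32 (-5.96 to -1.82) and -3.56 (-9.65 to -1.44). SLC25A43 lay 10407 bases from the abundant SLC25A5 on the same strand, and it took 0.711%, 1.83% and 0.0987% of their summed FPKM.

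By organ, 10 of 46 members tested in both comparisons were at least 2-fold higher in liver than in both other libraries (21.7%), beside 17.5% of all genes. These were SLC25A2, SLC25A15, SLC25A17, SLC25A18, SLC25A25, SLC25A27, SLC25A32, SLC25A40, SLC25A47 and SLC25A51. Lower in liver than in both others were 6 of 46, beside 13.4% of all genes, namely SLC25A4, SLC25A12, SLC25A23, SLC25A36, SLC25A43 and SLC25A45. In salivary glands 7 of 46 members were higher than in both others (15.2%), beside 10.2% of all genes, namely UCP2, UCP3, SLC25A12, SLC25A21, SLC25A34, SLC25A37 and 1 copy of SLC25A33. SLC25A18 and SLC25A40 were lower there than in both others, 2 of 46 (4.35%) beside 7.8% of all genes. In small intestine 3 of 45 were higher than in both others (6.67%), beside 13.7% of all genes, namely SLC25A4, SLC25A10 and the SLC25A24 gene Manis_javanica_newGene_11866. For the last, the difference of salivary glands rested on 5 against 10 fragments, with a log2 of -1.09 and an interval of -3.07 to 0.51, and it was -0.66 with library size alone. SLC25A1 and SLC25A48 were lower in small intestine than in both others, 2 of 45 (4.44%) beside 5.86% of all genes.

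General mitochondrial genes did not move in 1 direction either. Of 9 genes for mitochondrial mass, 3 were higher and 1 lower in liver than in small intestine, with the same counts against salivary glands, and all 9 were within 2-fold between salivary glands and small intestine. The chaperone HSPA9 had an FPKM of 55.4, 52.5 and 185, whereas CS was lowest in liver. The import machinery of carriers had 8 of 9 genes tested within 2-fold in each liver comparison, and another 2 of its 11 genes had no fragment in any library. For mitochondrial mass 5 of 9 were within 2-fold. Over all genes tested, 24.1% were higher and 24.1% lower in liver than in small intestine, and 24.9% and 22.7% against salivary glands. With so few genes in each list, nothing is read from these counts. TIMM13 was higher in liver than in small intestine and TIMM10 higher than in salivary glands, both chaperones of the space between the membranes. Transcripts encoded by mitochondrial DNA took 6.11% of the FPKM in small intestine, 4.32% in salivary glands and 10.7% in liver.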

How the data were processed

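Paired reads of the 3 libraries were aligned by the authors with TopHat2 to the M. javanica genome without regard to strand, so reads of overlapping antisense genes cannot be told apart, and new genes were joined with Cufflinks. The deposited counts are whole fragments per gene, not scaled between libraries. The deposited FPKM was made by the authors, who name RSEM, from fragments, transcript length and library size. A deposited score, called normalized in the files, was left out of the results. The deposited annotation also holds text from 7 databases.

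Counts were scaled with TMM factors from edgeR 4.0.16 in R 4.3.3. Differences used a prior count of 0.5. With 1 library per tissue no test between groups was possible, and a 2-fold difference with at least 10 fragments in 1 of the 2 libraries took its place. Intervals at 95% are exact binomial for differences, conditional exact for the ratio of 2 carriers between libraries, and Wilson for shares. PCR reads without molecular identifiers are not independent molecules. Python 3.11.15, pandas 2.3.3, numpy 2.4.6, scipy 1.17.1 and matplotlib 3.10.9 were used, and the fold calculation was tested on simulated data.

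Members and gene lists were chosen with earlier results of these data known, and products for pathway and marker genes were matched by NR name after values by symbol were seen. Named members are the 2 with the highest FPKM in each cargo group, the 10 with the largest rise and the 10 with the largest fall past 2-fold in each comparison, and those that share a symbol. Members named beyond this rule, and the pairs of carriers, were chosen after their values were seen. Alternatives were other scalings, the fold of FPKM (with 0.01 added), other thresholds and filters, membership by NR product, and counts summed by symbol. 1 member is counted in the totals but not reported here. Identifiers carry no locus tag, so no RefSeq table was joined, and no sequence is printed.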

Additional observations from a re-analysis of the deposited data

How the results depend on the processing

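No paired analysis was possible because each tissue has 1 library, and the replicate number only names it. None of the 61 differences past 2-fold changed sign under another scaling, the fold of FPKM or a prior count of 1. All 61 stayed past 2-fold with TMM of the 2 libraries, with median of ratios size factors and with a prior count of 1. With upper quartile scaling and with FPKM 60 did, and with library size alone 56. Of the 142 differences examined, 9 others newly passed 2-fold with library size alone, 6 with FPKM and 0 with the other settings. The median log2 difference of all genes itself moved with library size alone, to 0.32, -0.15 and 0.47 for liver minus small intestine, liver minus salivary glands and salivary glands minus small intestine. The members' medians then were 0.63, -0.28 and 0.66, and the median for liver minus salivary glands was -0.21 in FPKM. With library size alone, 3 members were lower in salivary glands than in small intestine.

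Counts of members at other settings follow without shares of all genes, which were not computed, and nothing about the family is read from them. A log2 difference of at least 2 left 8 higher and 5 lower in liver against small intestine. It left 6 higher and 9 lower in liver against salivary glands, and 5 higher and 2 lower in salivary glands against small intestine. With at least 100 fragments in 1 of the 2 libraries, 11 members were higher and 5 lower in liver against small intestine. With that filter, 8 were higher and 8 lower in liver against salivary glands, and 6 higher and 3 lower in salivary glands against small intestine. Counts summed by the Swiss-Prot symbol, which merges different carriers, gave 8 higher and 3 lower in liver against small intestine. They gave 6 higher and 7 lower in liver against salivary glands, and 7 higher and 3 lower in salivary glands against small intestine. Under the symbol SLC25A25, for example, SLC25A23 and SLC25A25 together were higher in liver than in small intestine by a log2 of 2.13. An FPKM above 5 was found for 29 members in small intestine. With members by NR product, their share of counts was 0.329%, 0.602% and 0.450%, and without the 10 most abundant genes 0.569%, 0.773% and 0.524%. Counts per length in place of FPKM, an alternative chosen after seeing the data, put the ADP/ATP carriers at 70.9%, 60.5% and 56.5% of members. Depth limits members with few fragments, and the number of animals limits every value.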

Other observations

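The NR product named 3 more carriers that had no Swiss-Prot symbol and so were not members. The glycine carrier SLC25A38 (gene19581), which serves haem synthesis, had an FPKM of 23.0 in small intestine, 14.7 in salivary glands and 26.6 in liver. SLC25A46 (gene16236), a relative of the outer membrane linked to mitochondrial shape, had 6.39, 5.28 and 8.25. Both were within 2-fold in all 3 comparisons. SLC25A41 (gene17213) was not in the expression tables and is named only.

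Carriers of the inner membrane outside the family were also described. Of 5 such genes, SFXN1, a serine carrier, was higher in liver than in both other libraries, with an FPKM of 3.85, 1.57 and 21.6. The pyruvate carrier subunit MPC1 had 72.3, 60.6 and 109, and MPC2 had 67.0, 124 and 47.8. Of the 5 genes, 1 was higher and none lower in liver against small intestine, and 1 was higher and 1 lower in the other 2 comparisons.

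Among regulators known to drive mitochondrial genes, PPARGC1B had an FPKM of 4.95 in small intestine, 0.873 in salivary glands and 0.209 in liver, and PPARGC1A had 6.98, 1.39 and 4.42. ESRRA was more even, at 42.8, 34.1 and 25.4. Of the 6 genes of this list, 2 were higher and 1 lower in liver than in small intestine. Against salivary glands, 3 were higher and 1 lower in liver. The 2 genes higher in both comparisons were entries of 1 gene, the bile acid receptor NR1H4. They had an FPKM of 4.05 and 4.99 in liver.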
